A study of Mus musculus with 8 samples.

Results

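The regions described here were open in resting bone marrow-derived macrophages of both genotypes and were in no peak list after lipopolysaccharide (LPS, from the envelope of Gram-negative bacteria). They are 810 of the 87260 regions (0.928%) obtained by merging the peaks of all 8 libraries on the 21 main chromosomes wherever peaks overlapped by at least 1 base. A region was included when all 4 untreated lists called it and none of the 4 LPS lists did, and these are called lost regions below. The regions were selected on the calls of these 8 lists, so the untreated against LPS contrast is a description here and was not tested. Absence from a list means that no peak was called, and closed chromatin is not shown by it.

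The assay was ATAC-seq: a transposase cuts open DNA and leaves sequencing adapters there. The groups were Nfat5 KO macrophages with LPS, wild-type (WT) macrophages with LPS, untreated Nfat5 KO macrophages and untreated WT macrophages, with 2 libraries each. All cells were grown from bone marrow for 7 days in 25% medium conditioned by L929 cells, fibroblasts that make M-CSF, on which macrophages depend, and LPS was given at 0.3 ng/ml for 2 h. Not given in the sources used here are the deleted part of Nfat5, the cells that lack it and the age of the mice. The lists held 54027 to 57691 peaks with LPS and 56346 to 60117 peaks untreated. Peak positions do not check the deletion itself. Depth is unknown, so no counting interval can be given. A region within 100 kb was found at 40 of 40 macrophage identity genes and at 16641 of 21887 protein-coding genes. Among markers of other cells it was found at 15 of 15 dendritic cell, 16 of 18 neutrophil and 17 of 22 T cell genes. Fibroblast and stroma markers had 17 of 20, erythroid markers 8 of 14, mast cell and basophil markers 8 of 13 and B cell markers 8 of 18. The counts were thus high for some other cell types and lower for others, and alone they do not mark the cell type.

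Resting macrophages keep many enhancers open through lineage factors such as PU.1, which bind nucleosomal DNA and hold sites accessible for other factors. LPS acts through the receptor TLR4 and activates NF-kB, AP-1 and interferon regulatory factors, which open further sites, while other sites lose factors and accessibility. NFAT5 is best known as the factor of the response to high salt and also acts at genes that macrophages switch on after bacterial products.

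Most lost regions lay away from gene starts. Only 11 of the 810 (1.36%) overlapped a promoter window, against 10.4% of all regions. A window runs from 250 bases before to 50 bases after a start of a gene in RefSeq (GRCm38.p6). A gene can have more than 1 window, with 21263 windows for 17492 genes. The windows at Adgrg1, Arhgap25 and Ace lie inside the gene body, away from its ends. The windows cover 79.9% of the 21887 protein-coding genes, so the count is a lower bound. The windows of 6 named genes with the widest peaks are shown, 5′ to 3′ on the gene's strand, with capitals marking matches to the motifs named below. The lost region overlapped all 300 bases at Arhgap25 and Lrrc23, 294 at Adgrg1, 283 at Siglech and 271 at Nr0b2. At Calm5 it overlapped 111 bases, and the start and the marked CCAAT box lay outside it. The printed windows are at Adgrg1, an adhesion G protein-coupled receptor (chr8:94984149-94984448, plus strand), Arhgap25, a GTPase-activating protein for Rac (chr6:87496278-87496577, minus strand), and Lrrc23, a protein of motile cilia (chr6:124779678-124779977, minus strand). The others are at Siglech, a sialic acid-binding lectin of plasmacytoid dendritic cells (chr7:55767934-55768233, plus strand), Calm5, a calmodulin-related protein (chr13:3853923-3854222, plus strand), and Nr0b2, an orphan nuclear receptor that represses transcription (chr4:133553126-133553425, plus strand).
Adgrg1: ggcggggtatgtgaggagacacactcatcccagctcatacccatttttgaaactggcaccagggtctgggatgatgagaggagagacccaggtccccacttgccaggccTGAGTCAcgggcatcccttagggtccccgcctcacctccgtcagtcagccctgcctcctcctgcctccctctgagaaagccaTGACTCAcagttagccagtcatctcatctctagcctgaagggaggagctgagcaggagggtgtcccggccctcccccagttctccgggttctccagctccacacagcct
Arhgap25: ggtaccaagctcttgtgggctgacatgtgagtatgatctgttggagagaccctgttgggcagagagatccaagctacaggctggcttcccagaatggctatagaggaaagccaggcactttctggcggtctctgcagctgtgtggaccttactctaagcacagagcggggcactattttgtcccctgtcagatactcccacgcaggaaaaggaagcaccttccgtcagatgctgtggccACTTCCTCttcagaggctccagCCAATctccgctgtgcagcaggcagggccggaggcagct
Lrrc23: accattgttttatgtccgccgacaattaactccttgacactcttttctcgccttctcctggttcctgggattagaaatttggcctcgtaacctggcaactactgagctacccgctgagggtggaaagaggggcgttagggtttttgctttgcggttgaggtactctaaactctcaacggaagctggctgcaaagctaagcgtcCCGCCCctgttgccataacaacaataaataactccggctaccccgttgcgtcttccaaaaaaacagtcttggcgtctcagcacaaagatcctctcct
Siglech: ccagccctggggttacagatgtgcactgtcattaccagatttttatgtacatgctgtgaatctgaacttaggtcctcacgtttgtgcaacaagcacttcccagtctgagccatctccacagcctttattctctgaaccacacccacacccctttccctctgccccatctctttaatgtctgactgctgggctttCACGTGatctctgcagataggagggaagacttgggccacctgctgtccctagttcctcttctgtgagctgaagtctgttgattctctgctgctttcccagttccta
Calm5: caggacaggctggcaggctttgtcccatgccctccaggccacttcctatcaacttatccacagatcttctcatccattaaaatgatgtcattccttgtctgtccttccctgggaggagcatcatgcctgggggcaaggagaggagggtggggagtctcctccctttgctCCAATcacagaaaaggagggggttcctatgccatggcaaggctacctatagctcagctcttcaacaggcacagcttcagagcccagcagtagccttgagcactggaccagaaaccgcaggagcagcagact
Nr0b2: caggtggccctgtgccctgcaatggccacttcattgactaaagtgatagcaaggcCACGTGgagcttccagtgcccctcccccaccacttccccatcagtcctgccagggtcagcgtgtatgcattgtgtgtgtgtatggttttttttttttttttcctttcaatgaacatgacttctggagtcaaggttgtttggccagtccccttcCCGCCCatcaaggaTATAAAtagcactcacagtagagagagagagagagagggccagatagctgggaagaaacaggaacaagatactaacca

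Both strands were searched for AP-1 (TGANTCA), CRE (TGACGTCA), ETS (CCGGAAGT) and PU.1 (GAGGAAGT) letters and for the ISRE, NF-kB, NRF1 and NFAT5 core motifs. The E-box was searched as CACGTG. The GC box was read as GGGCGG on either strand. The CCAAT box is named by its letters, and the TATA box was searched as TATAAA. The ETS and PU.1 letters end alike but start differently, so no single site matches both. AP-1 letters were in 1 of the 11 windows, that of Adgrg1, against 6.99% of 21263 windows of protein-coding genes. PU.1 letters were in 1, that of Arhgap25, against 3.13% of all windows. E-box letters were in 2, Siglech and Nr0b2, against 7.84%. GC boxes were in 3 against 46.2%, CCAAT boxes in 4 against 38.2% and TATA letters in 1 against 12.6%. CRE (2.23% of all windows), ETS (5.15%), ISRE (3.35%), NF-kB (0.423%), NRF1 (1.33%) and NFAT5 core letters (4.51%) were in none of the 11. A median of 4 CpG dinucleotides lay in the 11 windows, against 13 in all windows and 22 in the 9672 windows under regions called in all 8 lists. The median GC content was 54.7%, against 56.3% and 61.7%. These are descriptions of 11 windows, and a match is not a bound site.

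The promoter peaks differed in width. The Adgrg1 region (chr8:94983867-94984442) had peaks of 531 and 509 bases in untreated KO and 478 and 547 bases in untreated WT. The Arhgap25 region (chr6:87496122-87496624) had 325 and 427 bases in KO and 327 and 336 bases in WT, and the Nr0b2 region (chr4:133553155-133553472) had 309 and 295 bases in KO and 246 and 288 bases in WT. At Adgrg1 and Arhgap25 the ranges of the genotypes overlapped, and at Nr0b2 both KO peaks were wider. The remaining promoter windows belonged to Tnfrsf18, Ace, Bex6, Pgf and a predicted gene. The Pgf region (chr12:85177213-85177402), at the gene of placental growth factor, was one of the narrowest lost regions, with 180 and 181 bases in KO and 180 and 169 bases in WT.

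A lost region (chr19:46343748-46344071) also lay 878 bases from the hairpin of Mir146b, a microRNA of the miR-146 family, which is known for damping signalling below Toll-like receptors. Its peaks were 304 and 300 bases wide in KO and 202 and 203 bases wide in WT, so both KO peaks were wider. Another (chr5:64969040-64969411) lay 907 bases from the Mir574 hairpin and inside Tlr6, the partner of TLR2 in the recognition of bacterial lipopeptides, with 239 and 311 bases in KO and 218 and 260 bases in WT. These hairpins were picked after their values were seen, from 7 within 5 kb of a lost region, for their ties to Toll-like receptors. The mature arms are given with the seed, bases 2 to 8, in capitals, from RefSeq (GRCm38.p6), at chr19:46342790-46342811 and chr19:46342828-46342849 for Mir146b and chr5:64970328-64970350 and chr5:64970364-64970385 for Mir574, all on the plus strand. The 4 seeds differ from one another.
mmu-miR-146b-5p: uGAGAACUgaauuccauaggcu
mmu-miR-146b-3p: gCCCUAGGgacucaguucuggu
mmu-miR-574-5p: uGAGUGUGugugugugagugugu
mmu-miR-574-3p: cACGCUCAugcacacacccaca

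Lost regions were narrow in every untreated library. Their median peak width was 262 and 261 bases in the KO libraries and 281.5 and 248.5 bases in the WT libraries. The other 43289 regions called in all 4 untreated lists had medians of 526 and 524 bases in KO and 535 and 539 bases in WT. The median lost region stood at percentile 22.0 of its lists by width (mean of the 4 libraries). In KO, 91.4% and 87.9% of lost regions were narrower than the median peak of their list, and in WT 88.1% and 91.9%. Width is the only peak size used here.

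**Figure D1:**
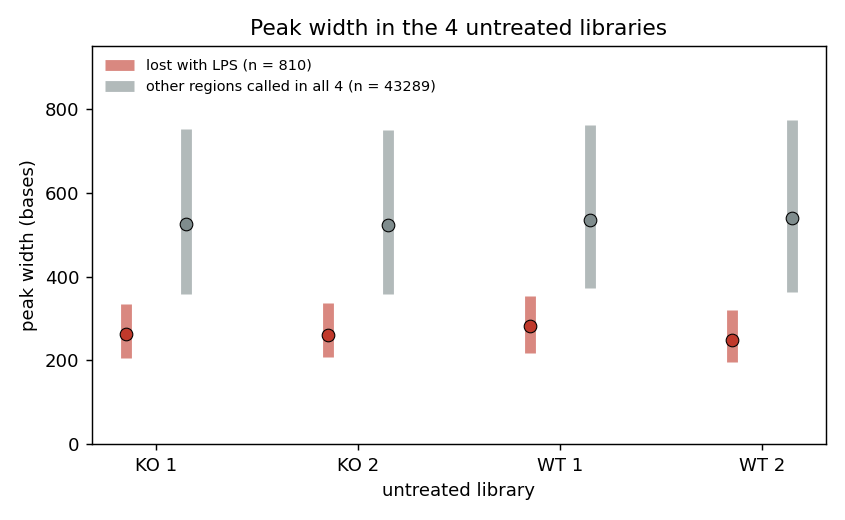
Peak width in bases (y axis) in the 4 untreated libraries (x axis), for the 810 lost regions and for the 43289 other regions called in all 4 untreated lists; points are medians and bars span the middle 50% of regions. In each library the median of the lost regions, 248.5 to 281.5 bases, lies below the lower quartile of the others.

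The share of regions lost fell steeply with width. Of the 44099 regions called in all 4 untreated lists, 810 (1.84%) were in no LPS list. The 44099 regions were ordered by mean untreated width into 10 classes of equal size. In the narrowest class, with mean widths of 175 to 283 bases, 456 of 4409 were lost (10.3%). The next classes had 190 (4.31%), 81 (1.84%) and 41 (0.930%) lost regions. The 4 widest classes held 3, 1, 2 and 1 lost regions among 4410 each. Narrow regions were thus lost far more often than wide ones, and the part of depth in this was not tested.

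**Figure D2:**
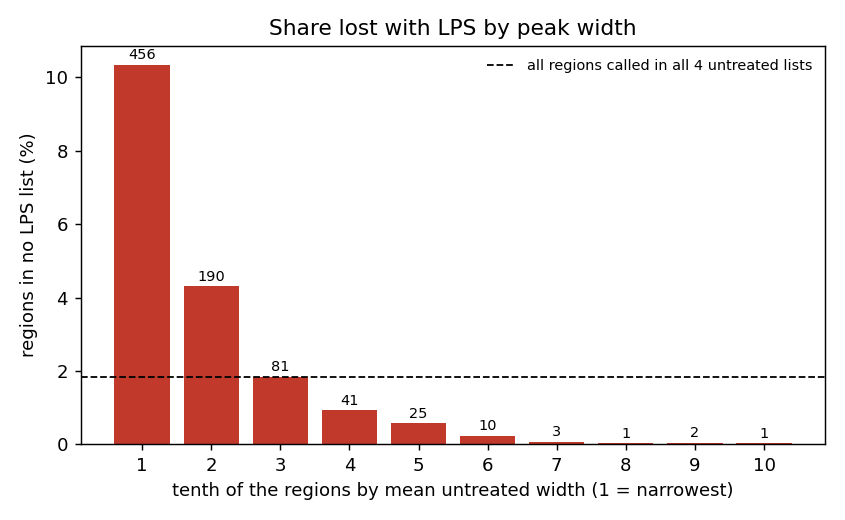
Percent of regions called in all 4 untreated lists that were in no LPS list (y axis), by class of mean untreated width, 10 classes of equal size (x axis, narrowest first); numbers above the bars are lost regions, and the dashed line is the 1.84% over all classes. The share was 10.3% in the narrowest class and at most 0.227% in the 5 widest.

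The boundary of the set was gradual. Regions called in all 4 untreated lists and in exactly 1 LPS list numbered 1361 and had a median width of 301 bases (mean of the 4 untreated libraries), against 270.9 bases for lost regions. Of these, 410 were called in KO LPS library 1, 446 in KO LPS library 2, 277 in WT LPS library 1 and 228 in WT LPS library 2. The median width in that single LPS library was 244.5, 232, 219 and 234.5 bases in the same order. On the other side, 1447 regions were in no LPS list and in 3 untreated lists, with a median width of 254.3 bases over the lists that called them. The medians just inside and just outside the rule lay within 50 bases of each other.

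Within a lost region the peaks of the untreated libraries mostly overlapped, which the merging of overlapping peaks in part imposes. Other regions were not measured for this. In 804 of the 810 regions each library had 1 peak. A median of 179 bases was covered in all 4 libraries, or 52.6% of the merged region, whose median width was 364.5 bases. In 7 regions no base was shared by all 4. Peaks of the KO libraries shared a median of 75.8% of their joint length, those of the WT libraries 74.4%, and those of a KO and a WT library 72.6%. The peak centres of KO and WT (means of 2 libraries) were a median of 22.5 bases apart, against 26.5 bases between the KO libraries and 28.75 bases between the WT libraries. The first is a shift between means and the others are between single libraries, so their sizes are not compared.

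No difference in the peak width of lost regions between genotypes was detected. The KO library medians lay between the WT ones, and the difference of the mean log2 medians, KO minus WT, was -0.016 (two-sided exact permutation p = 1, n = 2 per genotype, smallest possible p 0.333). By region, the median KO minus WT difference was 0.0024 on the log2 scale, with the middle 50% between -0.23 and 0.20. KO peaks were wider on average in 407 regions and WT peaks in 403. Both KO peaks were wider than both WT peaks in 137 lost regions (16.9%), against 15.5% of the regions called in all 4 untreated lists. Both KO peaks were narrower in 151 (18.6%), against 20.5%.

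No region passed a test of KO against WT width. The limma test was fitted on log2 width over all 44099 regions called in all 4 untreated lists, with Benjamini-Hochberg adjustment, and called 0 regions, 0.0% of those tested. The lowest adjusted p was 0.636. At an unadjusted p under 0.05 there were 60 of 810 lost regions (7.41%) and 3168 of all regions (7.18%). In data simulated at the median replicate spread for this comparison over 44099 regions, the same test recovered 97% of regions changed 2-fold and 39% of those changed 1.5-fold. Lost regions varied more between libraries than the other regions, with median absolute log2 differences of 0.27 between the KO libraries and 0.30 between the WT libraries, against 0.17 and 0.18, so these shares do not hold for lost regions, and differences above 2-fold among them went uncalled.

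The lost regions with the largest width differences stay as descriptions. The region 10.3 kb from Pcyt1b, an enzyme of phosphatidylcholine synthesis (chrX:93643750-93644597), had 495 and 848 bases in KO and 197 and 167 bases in WT (log2 difference 1.84 ± 0.33 SE, limma adjusted p = 0.636). The region 2.79 kb from Aldoart2 (chr12:55569681-55570123) had 410 and 443 bases in KO and 186 and 164 bases in WT (1.29 ± 0.17, limma adjusted p = 0.636). In both, each KO peak was wider than either WT peak. Fam172a and regions 591 and 422 kb from any protein-coding gene completed the 5 largest. At the other end, the region inside Ahnak, a large scaffold protein (chr19:9073874-9074693), had 348 and 269 bases in KO and 779 and 719 bases in WT (-1.29 ± 0.19, limma adjusted p = 0.636). The region across an end of Peak1, a pseudokinase of the cytoskeleton (chr9:56200772-56201392), had 178 and 175 bases in KO and 568 and 310 bases in WT. Here the WT peaks were the wider ones. A region at Ccr2, described below, was next.

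**Figure D3:**
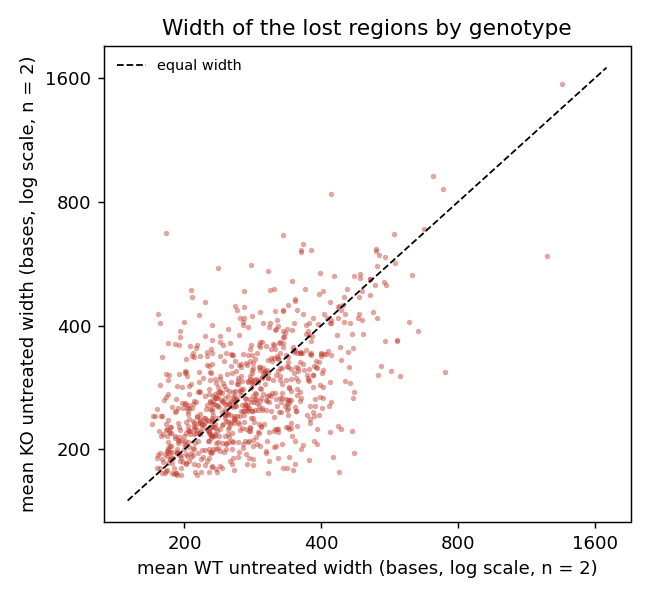
Mean peak width of each of the 810 lost regions in untreated KO (y axis) against untreated WT (x axis), both in bases on log scales, 2 libraries each; the dashed line marks equal width. Regions fall on both sides of the line, 407 wider in KO and 403 wider in WT.

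By position, 430 of the 810 lost regions (53.1%) overlapped a protein-coding gene body, against 57.7% of all regions and 63.8% of the other regions called in all 4 untreated lists. Only 52 (6.42%) lay within 1 kb of a gene end, against 16.0% and 24.6%. Another 48.4% were inside a gene and over 1 kb from its ends, and 366 (45.2%) were outside genes and over 1 kb away. The 959 regions in all 4 LPS lists and no untreated list had much the same make-up, with 5.01% within 1 kb of a gene end and 52.1% deep inside genes. Lost regions outside genes were a median of 23.1 kb from the nearest one, with the middle 50% between 8.10 and 65.4 kb, against a median of 23.5 kb for the other regions called in all 4 untreated lists.

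Position and width went together. Regions of all 4 untreated lists near gene ends had a median width of 754.5 bases, those deep inside genes 472.75 bases and those outside 468 bases. Of them, 0.486% near gene ends, 2.17% inside genes and 2.38% outside were lost. Within the narrowest width class the shares were closer to one another, 26 of 319 (8.15%) near gene ends, 206 of 2180 (9.45%) inside genes and 224 of 1910 (11.7%) outside.

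**Figure D4:**
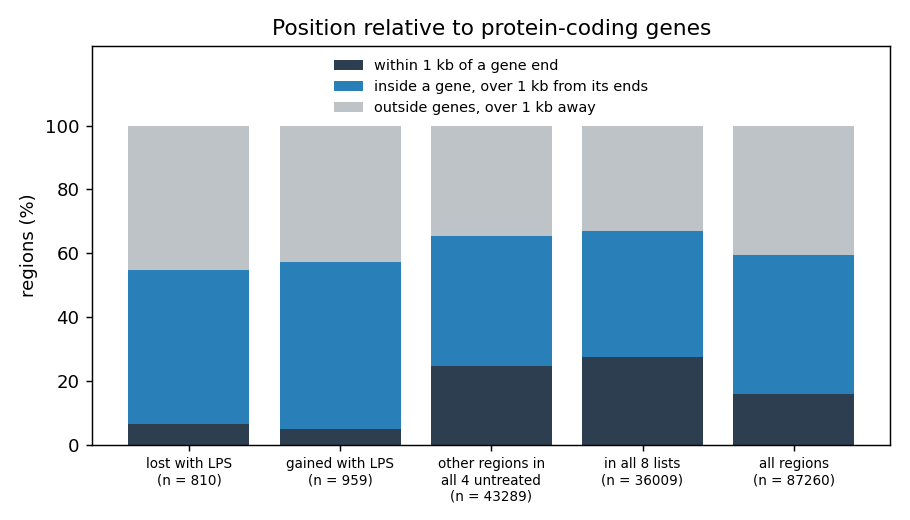
Percent of regions (y axis) within 1 kb of a gene end, deeper inside a protein-coding gene or outside genes, for the lost regions and 4 other sets (x axis). Lost regions have 6.42% near gene ends, close to the 5.01% of regions gained with LPS and below the 24.6% of the other regions in all 4 untreated lists.

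Few lost regions lay close to another. A region had a median of 759.2 kb to the next lost one. Within 50 kb of another lost region lay 58 (7.16%), in 29 pairs and no larger group, and within 10 kb lay 18 (2.22%). The 959 gained regions had 16.9% within 50 kb and 7.19% within 10 kb of another of their set, a larger set by number. Without KO LPS library 1, KO untreated library 1 or WT untreated library 2, more regions met the rule and 13.7%, 11.1% or 10.8% had another within 50 kb. Counting the next region on each side of every lost region gave 1620 neighbours, and a region between lost ones was counted for each. Of these neighbours, 711 (43.9%) were called in all 8 lists, against 41.3% of all regions. Another 26 (1.60%) were lost themselves, against 0.928% of all regions, and 18 (1.11%) were gained, against 1.10%. The 26 come from 13 adjacent pairs, each counted from both sides. Regions beside lost ones thus stayed called about as often as regions in general.

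Other peaks stayed close by after LPS. The median distance from a lost region to the nearest other peak was 7.76 and 7.92 kb in the KO LPS lists and 7.66 and 7.77 kb in the WT LPS lists, against 7.17 and 6.87 kb in the untreated KO lists and 6.64 and 6.78 kb in the untreated WT lists. All LPS distances were longer than all untreated ones, and LPS lists were on average shorter. Regions called in all 8 lists within 5 kb of a lost region numbered 257, and their median LPS minus untreated difference was -0.09 in log2 width. Over all 36009 regions called in all 8 lists it was -0.11, and within 10 kb of a lost region (549 regions) it was -0.13. Persisting neighbours differed from other regions by little on this scale.

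Of the lost regions, 741 had a protein-coding gene within 100 kb, and these were the nearest of 698 genes. There were 656 genes with 1 lost region, 41 with 2 and 1 with 3. The genes were long, with a median body of 55.7 kb against 25.0 kb for the 14033 genes with any region called in all 4 untreated lists. They had a median of 5 such regions each, against 2 over the 16641 genes with any region. The larger set includes genes without such a region, while the 698 have at least 1 by the rule, so part of this difference is set by the selection. A region called in all 8 lists remained at 605 of the 698 genes (86.7%), against 78.9% of the 16641 genes with any region, and 73 (10.5%) also had a gained region, against 4.54%. A region in all 8 lists is also in all 4 untreated lists. The share with such a region is therefore above 78.9% over the 14033 genes, and 86.7% is not shown to be high. The 698 genes had a median of 8 regions of any kind, against 3 over the 16641 genes. The part of this number in both shares and in the gene lengths was not tested.

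The widest lost regions lay at genes of varied function. The first by rank (chr12:110369169-110371717) was 75.4 kb from Ppp2r5c, a regulatory subunit of protein phosphatase 2A, with 1179 and 1920 bases in KO and 995 and 1724 bases in WT. The widths of the genotypes overlapped there. Tecta, which encodes a protein of the inner ear, had a region 14.995 kb away (chr9:42313905-42314627) whose widths varied least among these, 680 and 699 bases in KO and 668 and 678 bases in WT. Zbtb7b, the factor that directs T cells to the CD4 lineage, had one over its body and 0.79 kb from an end (chr3:89378434-89379213), with 571 and 769 bases in KO and 715 and 440 bases in WT. Others among the widest were inside Fbxw7, a substrate receptor of a ubiquitin ligase, Rapgef6, an exchange factor for Rap, Cdkal1, a tRNA-modifying enzyme, Plaat3, a phospholipase, Slc7a13, an amino acid transporter, and Mast1, a kinase, or outside Rnf144b, a ubiquitin ligase, and Abhd2, a hydrolase. By the width of the merged region, only 4 lost regions were over 1 kb wide.

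All gene lists together gave 49 lost regions at 40 genes, and those described are given below. Shares below are of the list's regions called in all 4 untreated lists, and over all genes that share was 1.80%. Macrophage identity genes had 9 of 247 (3.64%), at 5 genes. Chemokine and homing receptors had 5 of 113 (4.42%), early LPS response genes 7 of 210 (3.33%), late LPS response genes 1 of 78 (1.28%), M-CSF and growth factor signalling genes 4 of 241 (1.66%) and cell cycle genes 4 of 122 (3.28%). Interferon response genes (68 regions), alternative activation genes (98), cholesterol and lipid genes (136) and osmotic stress genes (64) had 0. With so few regions the shares are counts to describe, and none was tested.

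The identity genes with lost regions were Irf8, Itgam, Cd163, Runx1 and Fcgr1, and the first 4 had 2 each. Irf8 encodes a transcription factor that macrophage development requires. Its lost regions lay inside the gene, at chr8:120745362-120745608 with 221 and 220 bases in KO and 235 and 198 bases in WT, and at chr8:120750700-120751055 with 251 and 340 bases in KO and 293 and 287 bases in WT. The widths of the genotypes overlapped in both. Of the 17 regions assigned to Irf8, 7 were called in all 8 lists, so much of the locus stayed called with LPS. A further region inside the gene (chr8:120737294-120737625) was in the KO LPS library 2 list alone among LPS lists, at 182 bases, and in all untreated lists at 300 and 263 bases in KO and 307 and 185 bases in WT.

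Itgam encodes the CD11b chain of an integrin of myeloid cells. A lost region 3.30 kb from it (chr7:128058963-128059342) had 337 and 352 bases in KO and 321 and 377 bases in WT. The one inside it (chr7:128115404-128115769) had 261 and 237 bases in KO and 366 and 206 bases in WT. Cd163, a scavenger receptor for haemoglobin, had one 25.2 kb away (chr6:124278902-124279459) with 212 and 445 bases in KO and 496 and 285 bases in WT. The one inside Cd163 (chr6:124320299-124320721) had 222 and 390 bases in KO and 234 and 223 bases in WT, and the nearest region on each side of it was called in all 8 lists. Of 9 regions at Itgam and 8 at Cd163, 5 each were called in all 8 lists.

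Runx1, a factor of blood cell development, had a lost region inside (chr16:92705785-92706180), with 185 and 264 bases in KO and 361 and 320 bases in WT. A further one lay 70.7 kb from it (chr16:92896794-92897248), with 248 and 261 bases in KO and 378 and 379 bases in WT. At both, the WT peaks were wider than the KO peaks without overlap. Fcgr1, the high-affinity receptor for IgG, had one inside (chr3:96284475-96284767) with 226 and 245 bases in KO and 284 and 165 bases in WT.

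The chemokine receptor with 2 lost regions was Ccr2, the receptor for CCL2 that brings monocytes to inflamed tissue. Of its 6 regions, 5 were called in untreated lists alone and 1 in all 8. Lost regions were at chr9:124112294-124112864, 3.15 kb from the gene, with 200 and 192 bases in KO and 571 and 375 bases in WT, and at chr9:124073423-124073724, 28.2 kb away, with 195 and 290 bases in KO and 185 and 278 bases in WT. The first was narrower in both KO libraries (log2 difference -1.24 ± 0.27 SE, limma adjusted p = 0.636), and the widths of the second overlapped. A region inside Ccr2 (chr9:124103342-124103712) missed the rule by 1 list, with 0 and 229 bases in KO and 277 and 371 bases in WT. The persisting region (chr9:124067970-124068833), 33.1 kb from the gene, had peaks of 520 and 564 bases in LPS-treated KO, 493 and 637 bases in LPS-treated WT, 669 and 486 bases in untreated KO and 661 and 703 bases in untreated WT. Ccr1, a receptor for several CC chemokines, had a lost region 8.12 kb away (chr9:123953640-123954009) with 258 and 198 bases in KO and 358 and 231 bases in WT. Cmklr1, the chemerin receptor, and Itgb2, the common chain of the leukocyte integrins, had 1 each inside the gene.

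**Figure D5:**
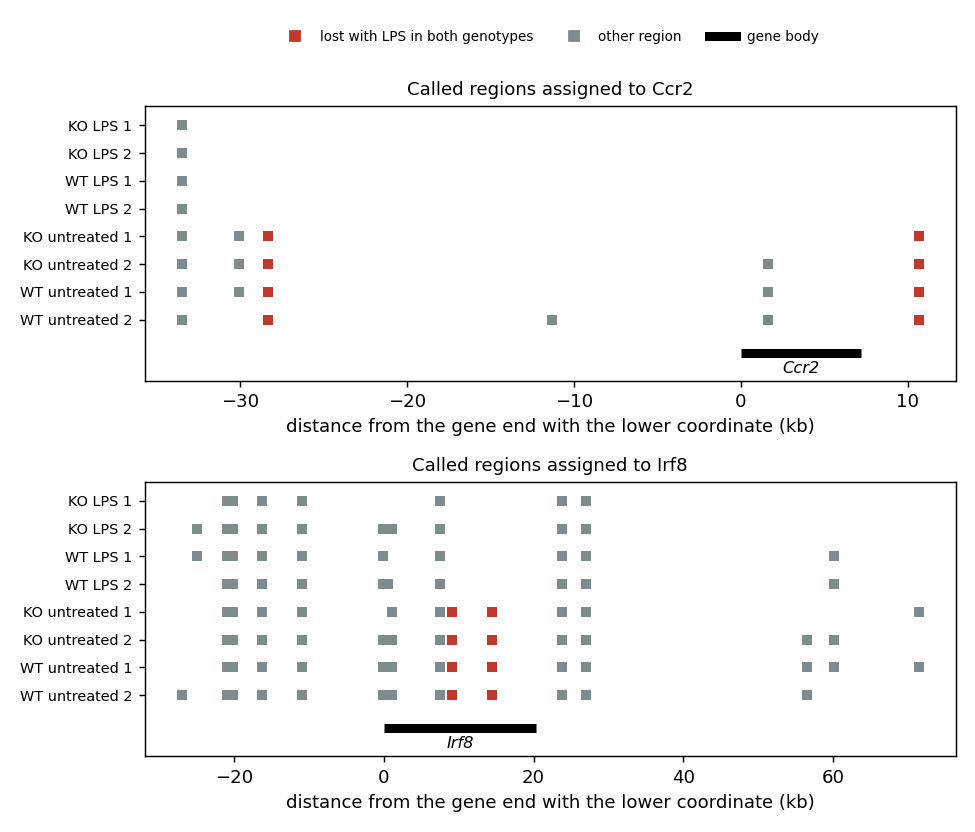
Regions called in each library (rows) at Ccr2 and Irf8, by distance in kb from the gene end with the lower coordinate (x axis); red marks are lost regions, grey marks the other regions and the black bar the gene body. At Ccr2 the LPS rows hold 1 region each, and at Irf8 both lost regions lie inside the gene among regions that persist.

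Among early LPS response genes, lost regions lay at inflammatory mediators and at inhibitors alike. Ccl4, a chemokine, had one over the gene (chr11:83663428-83663922) with 400 and 437 bases in KO and 426 and 399 bases in WT. Cxcl2, which attracts neutrophils, had one 2.82 kb away (chr5:90908756-90909296) with 520 and 219 bases in KO and 234 and 227 bases in WT, so 1 KO library alone was wide. Tnip1, a partner of the ubiquitin-editing inhibitor A20, had one inside the gene (chr11:54921070-54921413) with 344 and 234 bases in KO and 297 and 224 bases in WT. Tnfaip2 had one inside the gene, and those of Ier3, Tnfaip3, which encodes A20, and Jun, an AP-1 subunit, were 41.0, 59.1 and 45.6 kb away. The list also had 19 regions gained in all 4 LPS lists, beside 210 called in all 4 untreated lists. Over all regions these numbers were 959 and 44099, and no difference was tested. Within 25 kb of a gene 4 of the 7 lost regions remained. Cd80, a ligand for T cell costimulation, held the one region of the late list.

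Genes of growth factor signalling and of the cell cycle had 4 lost regions each. Those of Pik3cd, Tgfbr2, Igf1, Aurkb and E2f2 and 1 of the 2 at Cdk6 overlapped the gene body. Over all lost regions 53.1% did, and no difference was tested. Pik3cd, a lipid kinase of leukocytes (chr4:149665223-149665632), had 285 and 283 bases in KO and 410 and 357 bases in WT, with both WT peaks wider. Tgfbr2, a receptor of TGF-beta, had 364 and 238 bases in KO and 205 and 353 bases in WT. Igf1, a growth factor that macrophages secrete, also had one inside, and Dusp6, a phosphatase of ERK, one 65.2 kb away. In the cell cycle list, Aurkb, a mitotic kinase, had 378 and 384 bases in KO and 437 and 500 bases in WT (chr11:69045444-69046034). The remaining ones lay at E2f2, a transcription factor of the cell cycle, and Cdk6, a kinase of the entry into it, with 2 regions. Of housekeeping genes, B2m had 1 of 58 (1.72%).

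Lists of other cell types held 10 lost regions. Dendritic cell markers had 6 of 67 (8.96%), at Tcf4 (3 regions), Kmo, Siglech and Cadm1, and neutrophil markers had 2 of 18 (11.1%), at Prtn3 and Retnlg. T cell markers had 2 of 27 (7.41%), 55.3 kb from Gata3 and 89.0 kb from Cd28, and B cell (26 regions), erythroid (12), fibroblast and stroma (29) and mast cell and basophil markers (7) had 0. Tcf4, a factor of plasmacytoid dendritic cells that many other cells express, was the one gene with 3 lost regions. They had 312 and 198, 201 and 282, and 185 and 171 bases in KO, and 215 and 301, 195 and 232, and 196 and 170 bases in WT, with the widths of the genotypes overlapping in each, and 17 of its 36 regions were called in all 8 lists. The region 0.257 kb from Prtn3, a protease of neutrophil granules (chr10:79883431-79884021), was among the wider ones, with 501 and 522 bases in KO and 590 and 511 bases in WT. Kmo, an enzyme of tryptophan breakdown, had one inside the gene with 468 and 448 bases in KO and 444 and 393 bases in WT. Loss of other cells from the cultures and loss of accessibility within macrophages cannot be told apart in these bulk libraries. Their part in the lost regions was not tested.

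The count of lost regions depended on the lists. Taking the 54027 widest peaks of every list, the length of the shortest, gave 456 lost regions, which overlapped 400 of the 810. Counting a region as called in a list only with at least 50% of it covered gave 1214, with 556 of the 810 among them. This condition held for the LPS lists too. The regions beyond the 810 therefore had an LPS peak, with less than 50% of the region covered in each LPS list. Without KO LPS library 1 or 2 the count was 1222 or 1257, and without KO untreated library 1 or WT untreated library 2 it was 1272 or 1251.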

How the data were processed

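ATAC-seq was measured in 8 libraries, 2 for each combination of Nfat5 genotype and treatment. The authors deposited 1 list of peak positions per library on GRCm38 (mm10), in bases and without a score column. Tools named in the submitters' processing notes are MACS2 2.1.1, Picard, Bowtie2 2.3.0 and bcl2fastq 2.17.1.14. Not given in the sources used here are their settings, the handling of duplicates and any shift of cut sites. Such settings decide which weak peaks enter a list. Depth is unknown.

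Peaks were merged over the 8 lists with Python 3.11.15 and pandas 2.3.3. Width is the number of bases covered by a library's peaks in a region. Starts are counted from 1. Regions were assigned to the nearest protein-coding gene of the GRCm38.p6 table within 100 kb. KO and WT widths were compared over all regions called in all 4 untreated lists with limma 3.58.1 in R 4.3.3 (log2 width, trended variance, threshold 0.05) and by an exact permutation test of library medians; the limma test was tested on simulated data.

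The members and the gene lists were chosen with earlier results of these data known. The 19 lists hold 535 entries, of which 6 had no match. One list and 1 of the widest regions are not reported here. Genes were named by width rank (12 widest, 1 per gene), 3 or more lost regions, up to 4 genes per list by width rank, promoter overlap, the 5 largest and 5 smallest width differences and the extremes of width. Predicted genes were passed over; genes named beyond this were chosen after their values were seen. Labels do not say that replicates came from separate animals, and untreated and LPS libraries share title numbers. The p-values measure the spread between these libraries.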

Additional observations from a re-analysis of the deposited data

How the results depend on the processing

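With equal list lengths by peak width 456 regions were lost in both genotypes, and with stricter lists (27013 widest peaks each) 242, which overlapped 10 of the 810. The stricter cut itself removes most of the 810, since 87.9% to 91.9% of them were narrower than the median peak of their list. That overlap therefore cannot show how firm their loss is. Leaving out 1 library at a time gave 1038 to 1272, since a region then has to meet fewer conditions. Overlap with a gene body was 57.4% when a call in any list, untreated or LPS, needed at least 50% of the region covered. It was 58.7% with stricter lists and 52.6% to 54.8% without 1 library. The share within 1 kb of a gene end was 9.39% with 50% covered, 9.50% with stricter lists and 6.21% to 7.35% without 1 library, and 12.7% lay within 2.5 kb of an end. The share with another lost region within 50 kb was 12.03% with 50% covered, 3.31% with stricter lists and 8.93% to 13.7% without 1 library, and 2.22% and 11.5% had one within 10 and 100 kb. Merging peaks up to 100 bases apart gave 809 regions. The cause of the remaining shifts was not tested.

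The KO minus WT difference in log2 width, -0.016, was 0.017 with libraries centred on their medians, 0.074 without WT untreated library 1 and -0.11 without WT untreated library 2 (range -0.11 to 0.074), so its sign is not settled. With the replicate number as a block it was -0.016 (exact sign-flip permutation p = 1). Nothing ties KO and WT libraries of one number, and deviations of same-numbered libraries correlated at 0.038 over regions. The limma test called 0 regions, lost ones included, in each alternative run: centred libraries, replicate block, mean width of at least 300 bases, without each library and, added after seeing the data, widest single peak. Also added then, assignment within 25 kb left 4 lost regions at early LPS response genes. Unknown depth limits all calls of narrow peaks.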

Other observations

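Lost regions lay on all chromosomes but Y, on which 24 regions were called in all 4 untreated lists. As a share of the regions called in all 4 untreated lists, they made up 2.62% on chromosome 19 (32 regions) and 0.931% on chromosome 14 (16 regions), the ends of the range over the 19 autosomes, and 1.34% on X. No difference between chromosomes was tested.

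Of the 380 lost regions outside protein-coding genes, 89 (23.4%) overlapped another annotated gene, 77 of them a long non-coding RNA gene. With these, 519 of the 810 (64.1%) overlapped a gene of any kind. Counted by protein-coding genes alone, 69 (8.52%) had no gene within 100 kb, against 10.04% of all regions.

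Among the 29 pairs of lost regions within 50 kb, the one 55.3 kb from Zfp36l2, which encodes an mRNA decay factor, spanned 9.31 kb, that inside Cux1, a homeobox factor, 36.9 kb, and that overlapping Npas4, an activity-dependent transcription factor, 6.88 kb. These were chosen after their values were seen.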
